A study of Mus musculus with 18 samples.

Results

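Significant interactions that *Runx1* formed on the far side of *Setd4*, from *Cbr3* to *Erg* and beyond, comprised 315 *Dpn*II fragments out of 1970 distinct fragments listed for all baits. They were chosen by position alone, as every fragment of chromosome 16 in the lists of category 1 and 2 interactions whose midpoint lay beyond the outer edge of the region around *Runx1* in which interactions were also called separately (called the domain here). That edge was 808.9 kb upstream of the *Runx1* P1 transcriptional start site, 31.2 kb beyond the end of *Setd4* and 24.7 kb beyond the end of *Cbr1* (mm10). Circular chromosome conformation capture sequencing (4C-seq) was performed in HPC-7, a cultured mouse haematopoietic progenitor cell line grown with stem cell factor, from which all libraries came. There were 6 baits: the P1 promoter, which is active in these cells, the P2 promoter, which is silent, the +24 enhancer, and a secondary bait at a neighbouring cohesin and CTCF binding site for each (P1cc, P2cc and +24cc). Each bait had 2 replicates, from a single cell line at different passages, and 1 control from which the first ligation had been omitted, giving 12 4C-seq libraries and 6 controls. According to the methods, all baits drew on the same pair of cell preparations and the controls on a mixture of these, so the lists of different baits are not independent of each other. *Mse*I was used as the second restriction enzyme with both +24 baits and *Bfa*I with the other baits, so a difference between those 2 sets of baits cannot be told apart from a difference between enzymes.

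In 4C-seq, fragments that lie close together in the cross-linked nucleus are ligated to the bait fragment, and their ends are read by sequencing outwards from the bait. Mammalian chromosomes are folded into topologically associating domains, within which enhancers and promoters meet more often than they do across the boundaries between domains. *Runx1*, a transcription factor required for the emergence of definitive blood cells, lies in such a domain, with *Setd4* and *Cbr1* at its upstream edge. The contacts described here pass the edge of the region called separately around *Runx1*, and how the chromosome is divided into domains beyond it was not measured.

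The lists gave the position of each fragment that was significant in both replicates, and whether it was category 1, the more stringent class, in both. Read counts and separate calls of each replicate were not given. The depth of each contact is thus unknown, no spread between replicates can be given, and a fragment that was not listed may have been unmappable, removed because of a control read, or not significant. All 315 fragments coincided with a single *Dpn*II fragment of the reference. Abutting fragments were merged into 1 contact per bait.

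The sequences that follow are those of fragments on which the account turns, read from the plus strand of chromosome 16 of GRCm38.p6 (the same coordinates as mm10), with the *Dpn*II site GATC, the *Mse*I site TTAA and the *Bfa*I site CTAG in capitals. The first pair are the 2 fragments listed by the most baits, namely P1, +24 and +24cc. Both lay in intron 26 of *Dop1b*.
Dop1b fragment A, chr16:93791355-93791623: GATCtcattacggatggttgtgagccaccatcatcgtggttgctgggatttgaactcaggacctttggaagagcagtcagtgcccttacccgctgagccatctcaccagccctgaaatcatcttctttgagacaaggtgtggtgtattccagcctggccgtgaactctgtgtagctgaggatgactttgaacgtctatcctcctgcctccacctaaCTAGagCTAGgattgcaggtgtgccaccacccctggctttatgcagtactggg
Dop1b fragment B, chr16:93791624-93791885: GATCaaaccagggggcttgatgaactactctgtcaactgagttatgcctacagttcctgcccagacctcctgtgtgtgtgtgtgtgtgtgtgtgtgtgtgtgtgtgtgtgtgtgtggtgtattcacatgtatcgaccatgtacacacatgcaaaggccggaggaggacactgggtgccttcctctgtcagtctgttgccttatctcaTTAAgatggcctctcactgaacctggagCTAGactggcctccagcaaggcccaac
The next pair are 2 of the 3 P1cc fragments that lay within 2 kb upstream of *Cbr3*, shown because they were the only fragments of a P1 or P2 bait to reach a promoter region beyond *Setd4*.
Cbr3 upstream fragment A, chr16:93681154-93681223: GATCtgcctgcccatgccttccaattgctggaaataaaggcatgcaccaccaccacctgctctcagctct
Cbr3 upstream fragment B, chr16:93681224-93681286: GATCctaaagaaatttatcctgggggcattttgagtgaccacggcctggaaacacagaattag
The *Chaf1b* promoter was the only one whose start site was listed by both +24 baits, and its RefSeq promoter window (GRCm38.p6, plus strand, 250 bases before the start site to 50 after) is shown with the ETS-type motif CCGGAA in capitals.
Chaf1b promoter, chr16:93883651-93883950: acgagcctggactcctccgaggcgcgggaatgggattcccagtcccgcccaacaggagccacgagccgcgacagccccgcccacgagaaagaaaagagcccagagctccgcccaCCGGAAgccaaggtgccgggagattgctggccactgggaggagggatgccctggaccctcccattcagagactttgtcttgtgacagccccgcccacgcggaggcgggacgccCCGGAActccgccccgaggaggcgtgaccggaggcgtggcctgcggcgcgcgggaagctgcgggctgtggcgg
The last pair come from the +24cc contact in *Erg*, shown because it was the only contact in a transcription factor gene of the stretch. The first is the leading 300 bases of a 983 bp fragment and the second is a whole fragment of 90 bp.
Erg fragment A, chr16:95365081-95365380: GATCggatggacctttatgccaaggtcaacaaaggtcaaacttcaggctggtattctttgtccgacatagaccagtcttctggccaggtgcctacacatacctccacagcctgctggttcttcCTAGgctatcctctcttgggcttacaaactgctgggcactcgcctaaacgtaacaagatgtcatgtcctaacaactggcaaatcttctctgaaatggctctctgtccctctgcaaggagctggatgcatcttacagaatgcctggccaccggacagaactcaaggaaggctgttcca
Erg fragment B, chr16:95366064-95366153: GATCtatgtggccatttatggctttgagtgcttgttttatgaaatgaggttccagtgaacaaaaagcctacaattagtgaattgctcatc

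Contacts beyond *Setd4* were made almost entirely by the +24 enhancer baits. The +24 bait had 178 fragments in 27 contacts covering 85.3 kb, and +24cc had 189 fragments in 25 contacts covering 92.4 kb. P1cc had 13 fragments in 3 contacts covering 7.27 kb. P1 had 6 fragments in 2 contacts covering 2.14 kb. P2cc and P2 had 0 fragments there. From the edge of the domain to the outermost contact, a stretch of 2659 kb with 6410 *Dpn*II fragments, the share listed was 2.78% for +24, 2.95% for +24cc, 0.203% for P1cc, 0.0936% for P1, and 0 for both P2 baits, and 4.91% were listed by any bait. As a share of each bait's own list, fragments beyond *Setd4* made up 19.5% for +24, 15.7% for +24cc, 2.43% for P1cc and 1.52% for P1. These counts describe how the fragments were chosen and carry no test.

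**Figure D1:**
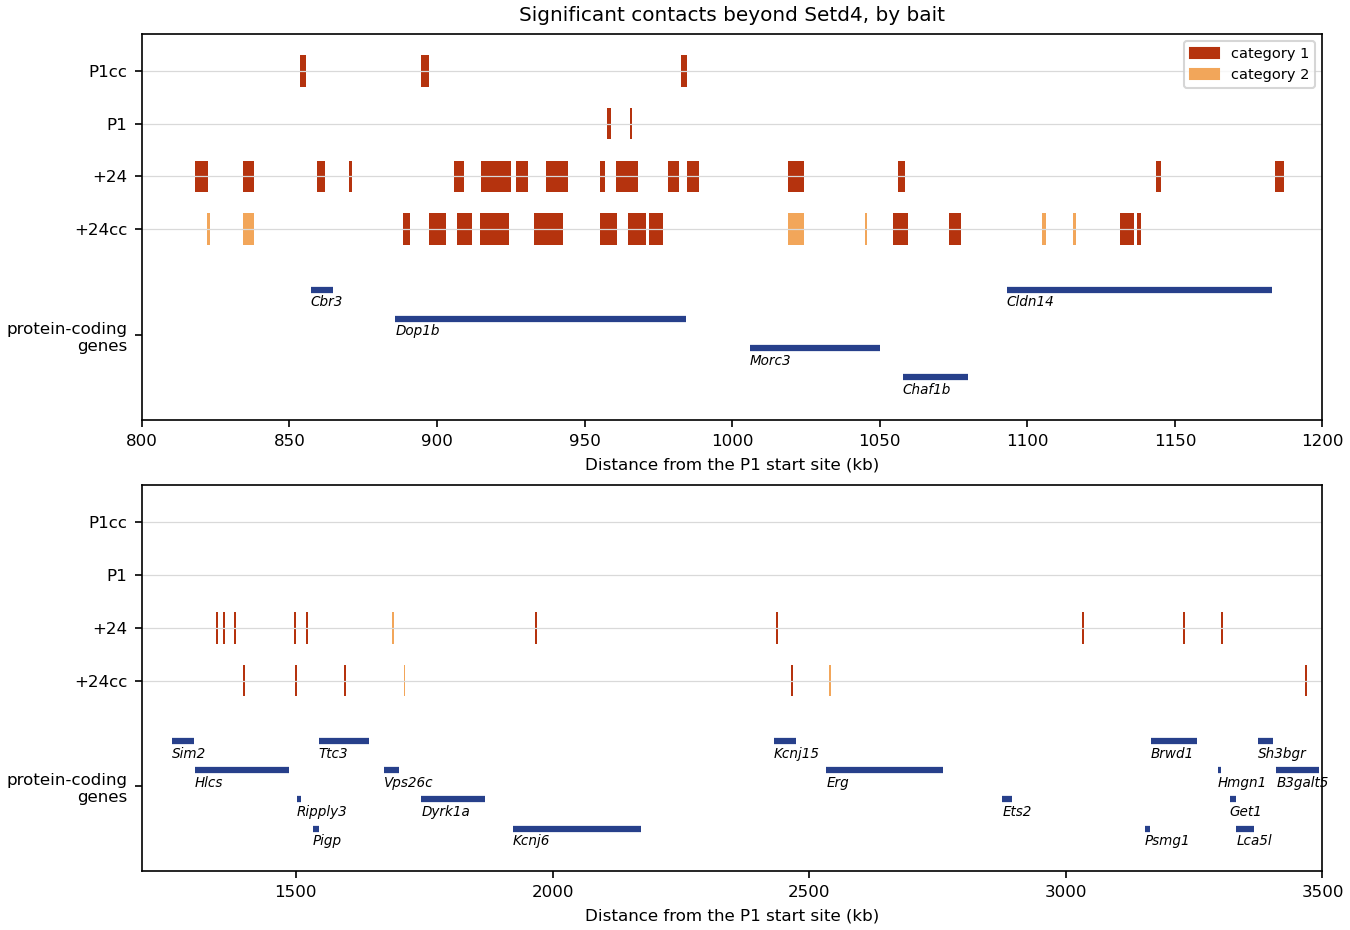
Position of each contact beyond *Setd4*, by bait, as distance upstream of the P1 start site in kb, in 2 panels of different scale. Dark bars are contacts of category 1 and light bars contacts of category 2, with protein-coding genes below (bars narrower than the line width are widened to be visible). The +24 and +24cc contacts crowd over *Dop1b* and thin out beyond *Chaf1b*, and the 5 contacts of P1cc and P1 lie between 853.5 and 984.8 kb.

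The contacts were concentrated close to the domain edge. Beyond the edge, the first contact began after 9.14 kb, and 278 kb separated it from the last contact inside the domain. In the first 250 kb, +24 had 14 of its 27 contacts and 22.3% of the 584 *Dpn*II fragments, and +24cc had 13 of its 25 contacts and 22.9%. P1cc and P1 had all of their contacts in this stretch, with 2.23% and 1.03% of its fragments. In the next 250 kb the share was 1.83% for +24 and 3.82% for +24cc, and it was 2.97% and 3.14% in the 250 kb after that. Farther out, no interval of 250 kb had more than 1.25% listed by either bait. Only 5 contacts of +24 and 3 of +24cc lay more than 1000 kb past the edge, the outermost reaching 3304 kb (+24) and 3468 kb (+24cc) from the P1 start site. The last 1914 kb of the chromosome held none.

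**Figure D2:**
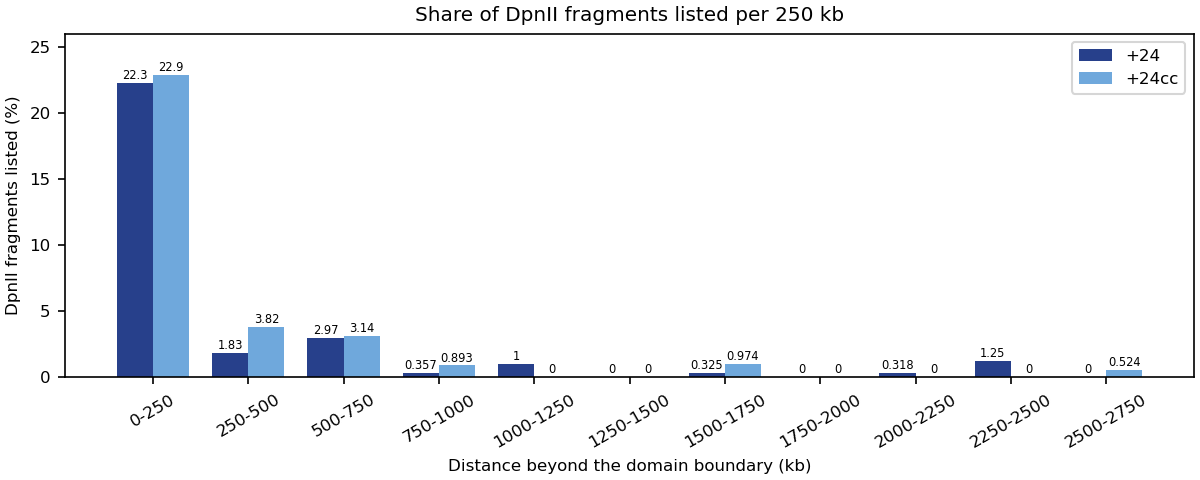
Percentage of *Dpn*II fragments listed by +24 (dark) and +24cc (light) in successive intervals of 250 kb beyond the domain edge, each bar a single list that pools both replicates. The first interval stands at 22.3% and 22.9%, and every other interval is under 4%.

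The +24 and +24cc baits had similar numbers of contacts beyond *Setd4*, 27 and 25, but differed in those on the other side of the domain, beyond *Clic6*, with 12 and 35. The share of outside contacts that lay on the *Setd4* side was therefore lower for +24cc through its larger number beyond *Clic6*. Of the contacts of +24 outside the domain, 27 of 39 (69.2%, 95% Wilson interval 53.6 to 81.4) lay on the *Setd4* side and the rest on the *Clic6* side. For +24cc it was 25 of 60 (41.7%, 30.1 to 54.3). The odds ratio was 3.11 (95% interval 1.25 to 8.14), with p = 0.00821 by two-sided Fisher's exact test and 0.0147 after Benjamini-Hochberg adjustment over 6 comparisons. The units of these tests are contacts of lists that pool replicates, so the p-values and intervals cover counting error only. Neighbouring contacts are not independent, and overlapping contacts of +24 and +24cc are counted as separate units. When fragments up to 5 kb apart were merged, the difference was 24.1 percentage points and the adjusted p was 0.0679.

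*Dop1b* had the most contacts and listed fragments of any gene in the stretch, and was the only one reached by 4 baits. By share of length covered, the short gene *2310043M15Rik* inside it was higher, with 97.3% of the gene and its upstream 2 kb for +24cc and 44.9% for +24. *Dop1b* encodes a large, conserved protein of the endosomal and Golgi trafficking machinery, and lies on the plus strand at chr16:93711907-93810588 with 37 exons. Of its 227 *Dpn*II fragments, +24 listed 82 (36.1%) in 7 contacts, and +24cc listed 105 (46.3%) in 8 contacts. In length, +24 covered 38.7% of the gene, +24cc 50.0%, either of them 65.2%, and both together 23.5%. P1cc and P1 had 6 fragments each. All of these fragments were category 1. The longest contacts beyond *Setd4* lay here: one of +24 with 27 fragments over 9891 bp and one of +24cc with 25 fragments over 9718 bp, both spanning exons 5 to 7 and sharing 22 fragments, and a +24cc contact of 16 fragments over 9774 bp across exons 12 to 18. The outer start site of *Dop1b* was not contacted. The nearest contact began 2.55 kb inside the gene, with +24cc at exon 2. The inner curated start site had 3 fragments of +24cc within 2 kb upstream.

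**Figure D3:**
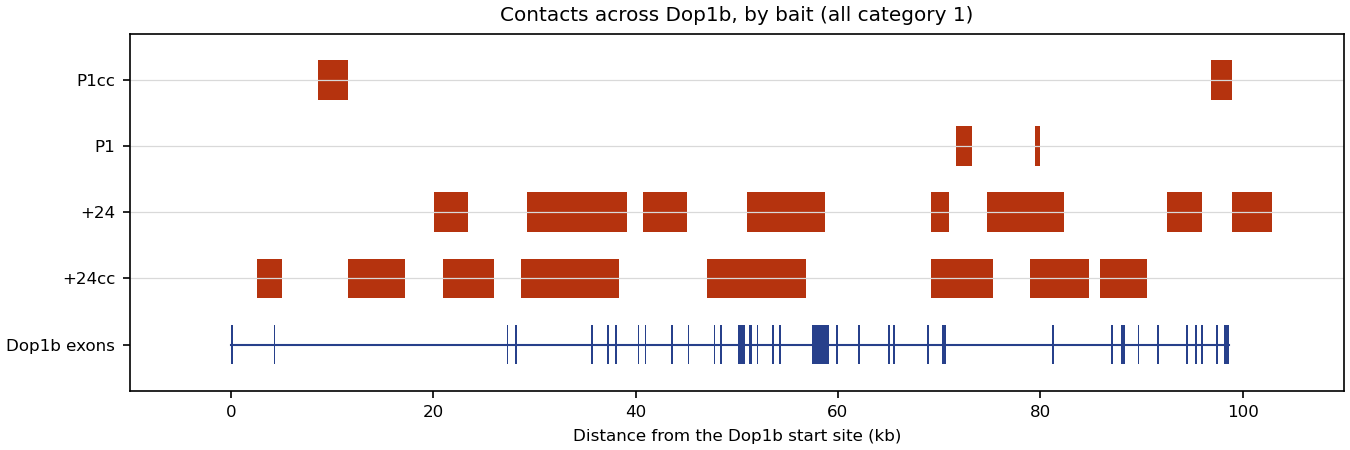
Contacts of P1cc, P1, +24 and +24cc across *Dop1b*, with exons below, against distance from its outer start site in kb. The bars of +24 and +24cc together cover 65.2% of the gene, and the smaller bars of P1cc overlap no bar of +24 or +24cc.

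The contacts of P1 and P1cc in *Dop1b* lay next to or within those of the enhancer baits, and the P1cc contact upstream of *Cbr3* lay apart from them. The larger of the 2 P1 contacts, of 4 fragments at 957.5 kb from the P1 start site, lay wholly inside a +24cc contact and 662 bp from one of +24. The smaller is made up of the pair of *Dop1b* fragments printed above, 531 bp in all, and lay inside a contact of +24 and a contact of +24cc. In *Dop1b*, 143 of the 227 *Dpn*II fragments were listed by +24 or +24cc, so a contact there would often lie beside or within theirs by position alone. Over the whole stretch, +24 listed 2.78% and +24cc 2.95% of fragments. P1cc, with 13 fragments in all beyond *Setd4*, shared 0 of them with any other bait. Its contact in intron 2 of *Dop1b*, of 2 fragments, directly abutted a +24cc contact, and its contact over exons 36 and 37 abutted a +24 contact at the 3′ end of the gene. Its remaining contact, of 7 fragments, lay upstream of *Cbr3*, 3.51 kb from the nearest contact of +24 and 15.5 kb from the nearest of +24cc.

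The +24 and +24cc baits listed 65 fragments in common, which was 36.5% of the +24 fragments and 34.4% of the +24cc fragments, in 10 runs covering 34.8 kb. By contact, 9 of 27 of +24 (33.3%) overlapped a contact of +24cc, and 9 of 25 of +24cc (36.0%) overlapped one of +24. All of this overlap lay within the first 250 kb: 44 of the fragments were in *Dop1b*, 8 in *Morc3* and 7 at the *Chaf1b* promoter. In *Dop1b*, +24 listed 36.1% and +24cc 46.3% of the 227 *Dpn*II fragments, so unrelated lists would share many there too. Whether the overlap exceeded that was not tested. Contacts with identical ends in both lists occurred at *Morc3* (exons 4 to 6, 8 fragments over 5614 bp) and at an intergenic site 19.1 kb upstream of *Cbr3* (5 fragments over 3636 bp), and both were category 1 for +24 only. Beyond *Chaf1b*, the 13 contacts of +24 and the 11 of +24cc shared 0 fragments. Of the 5761 *Dpn*II fragments there, +24 listed 0.833% and +24cc 0.764%. With so few listed, unrelated lists would also share almost none, so the count shows no difference in the sites reached. The closest pair there, upstream of *Ripply3*, lay 54 bp apart. In *Hlcs*, all 3 contacts of +24 and the single contact of +24cc lay in intron 6, at separate positions.

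Category 1 status was all or none within every contact beyond *Setd4*, of all 4 baits. The same held beyond *Clic6*, where 0 of the 12 contacts of +24 and 0 of the 35 of +24cc mixed categories. Inside the domain, 2 of 54 contacts of +24, 8 of 57 of +24cc, 4 of 45 of P1cc and 1 of 35 of P1 mixed them. Contacts were compared by whether they held any category 1 fragment, called category 1 contacts here, so that mixed contacts count as category 1. For +24, 26 of 27 contacts (96.3%) were category 1, and for +24cc 17 of 25 (68.0%; odds ratio 11.7, 95% interval 1.37 to 563; p = 0.00977 and adjusted p = 0.0147 by Fisher's exact test). Leaving out contacts within 150 kb of the domain edge gave a difference of 29.7 percentage points with an adjusted p of 0.0611. The 8 contacts of +24cc without category 1 had a median of 2.5 fragments, against 8 in its category 1 contacts, and included those at *Morc3*, *Erg* and the 2 nearest the edge. The +24 contact without category 1 lay in *Vps26c*. In the totals of both baits below, a site contacted by both is counted for each bait separately. Beyond *Setd4*, 9 of the 27 contacts of +24 overlapped one of +24cc, and the tests do not allow for this. For both baits together, 43 of 52 contacts beyond *Setd4* (82.7%) were category 1, against 59 of 111 (53.2%, the mixed contacts included) inside the domain (odds ratio 4.18, 95% interval 1.79 to 10.7; adjusted p = 0.000751, Fisher's exact test), where fragments were also called in a separate run restricted to the domain. With fragments up to 5 kb apart merged, this difference was 20.4 percentage points with an adjusted p of 0.0679. The share was 39 of 47 (83.0%) on the *Clic6* side (odds ratio 0.98, 95% interval 0.297 to 3.18; adjusted p = 1, Fisher's exact test).

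Of 26 genes with a curated RefSeq transcript between the domain edge and the outermost contact, 16 were contacted in the gene body or the 2 kb upstream, 14 of them among 23 protein-coding genes. The +24 bait contacted 13, +24cc 10, P1cc 2 (*Cbr3* and *Dop1b*) and P1 1 (*Dop1b*). Both +24 baits contacted 7: *Dop1b*, the long non-coding RNA gene *2310043M15Rik* inside it, *Morc3*, *Chaf1b*, *Cldn14*, *Hlcs* and *Kcnj15*. In addition, +24 contacted *Cbr3*, *Vps26c*, *Kcnj6*, *1600002D24Rik*, *Brwd1* and *Hmgn1*, and +24cc contacted *Ttc3*, *Erg* and *B3galt5*. With category 1 alone, 14 genes were left, *Erg* and *Vps26c* being lost.

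Of the genes of the stretch, 5 were on the list for chromatin and DNA-bound proteins, from which transcription factors such as *Sim2* and *Ets2* were kept apart, and all 5 were contacted, beside 14 of 23 protein-coding genes in all. So small a list, chosen with results known, shows nothing particular to these genes. *Morc3*, which encodes a nuclear-body ATPase that binds histones, had 1 contact of +24 and 2 of +24cc, with 8 and 10 fragments. *Chaf1b* encodes a subunit of chromatin assembly factor 1, which places histones on newly replicated DNA, and had 7 fragments of +24 and 22 of +24cc. *Hlcs*, on the list but best known for the enzyme that attaches biotin to carboxylases, had 10 fragments of +24 and 11 of +24cc. *Brwd1*, for a bromodomain protein, had 4 fragments of +24 in intron 13. *Hmgn1*, for a nucleosome-binding protein, had 2 fragments of +24 within 2 kb upstream of its start site and 0 in the gene body.

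The other lists were smaller still, and their counts are a description beside the same 14 of 23. Among genes for membrane channels and junctions, 3 of 3 were contacted. *Cldn14*, a tight-junction claudin, had 9 fragments of +24 and 12 of +24cc, at separate positions. The potassium channel gene *Kcnj15* had 2 fragments of +24 in intron 3 and 3 of +24cc around exon 5. *Kcnj6*, the other channel gene, had 6 fragments of +24 in intron 3 and was also the 1 of 2 nervous system genes contacted. All 3 trafficking and protein turnover genes were contacted: *Dop1b*, *Vps26c* (2 fragments of +24), whose product belongs to an endosomal recycling complex, and *Ttc3* (2 fragments of +24cc), a ubiquitin ligase gene. The carbonyl reductase gene *Cbr3* had 11 fragments of +24 in intron 2 and 3 of P1cc upstream. Of 2 genes for glycosylation and GPI anchors, *B3galt5*, a galactosyltransferase gene, had 3 fragments of +24cc and *Pigp* had none. The kinase gene *Dyrk1a* was not contacted.

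Of 4 genes listed as transcription factors, 1 of which (*Ripply3*) encodes a co-repressor, 1 was contacted, beside 14 of 23 protein-coding genes in all. *Erg*, an ETS-family factor of blood stem cells and endothelium, lies on the minus strand at chr16:95359169-95586593. It had a single +24cc contact of 3 fragments (chr16:95365081-95367645, 2565 bp), none of them category 1. The contact lay in intron 10 of an 11-exon transcript, near the 3′ end of the gene and 220 kb from its outermost start site, and covered 1.12% of the gene with its upstream 2 kb. The nearest +24 contact was 95.5 kb from the gene and 101 kb from this contact, and none of the 3 curated start sites of *Erg* had a contact within 2 kb upstream. *Sim2*, *Ripply3* and *Ets2* had 0 fragments of any bait. For *Ets2*, another ETS-family gene, the nearest contact of +24 was 136 kb away. *Pigp*, *Dyrk1a*, *Psmg1*, *Get1*, *Lca5l* and *Sh3bgr* completed the 9 protein-coding genes without a contact.

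Promoter regions were contacted at a minority of start sites. Any bait listed 21 of 172 promoter fragments (12.2%, against 4.91% of all fragments), 8 of them at *Chaf1b* alone. In the first 250 kb, 16 of 37 promoter fragments were listed (43.2%, against 36.3% of all fragments there), and farther out 5 of 135 (3.70%, against 1.77%). Of 41 curated start sites, 8, belonging to 6 genes, had a listed fragment within 2 kb upstream, and 2 had one at the start site itself. At *Chaf1b*, +24 listed 6 and +24cc 8 of the 8 *Dpn*II fragments in the 2 kb upstream, and both listed the fragment over the start site, all as category 1. The other start site, of *2310043M15Rik*, was listed by +24cc. The remaining promoter regions were those of *Cbr3* (P1cc), *Dop1b* at its inner start site (+24cc), *Cldn14* (+24 at the outer and +24cc at the 2 inner start sites) and *Hmgn1* (+24). The printed *Chaf1b* window had a GC content of 70.3% and 30 CpG dinucleotides, more than 88.3% of 32851 RefSeq promoter windows of the same 300 bases. Searched on both strands, it held the letters CCGGAA 2 times, which 14.9% of all windows held at least once. It held neither the RUNX-type letters TGTGGT nor the GATA-type letters AGATAA, present in 16.8% and 11.2% of windows. None of these motifs contains another, and a match is a description of the letters only.

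Listed fragments lay at genes more often than the surrounding fragments did. Beyond *Setd4*, 84.4% of the fragments listed by any bait overlapped a gene or its upstream 2 kb, against 64.7% of all *Dpn*II fragments of the stretch. Exonic fragments made up 17.8% of those listed and 7.72% of all, promoter fragments 6.67% and 2.68%, intronic fragments 60.0% and 54.3%, and intergenic fragments 15.6% and 35.3%. *Dop1b* alone accounted for 149 of the 315 fragments. Farther than 250 kb from the edge, where *Dop1b* does not lie, 79.6% of 103 listed fragments were at a gene, against 64.6% of all fragments there. No test was made, because neighbouring fragments are listed in runs.

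**Figure D4:**
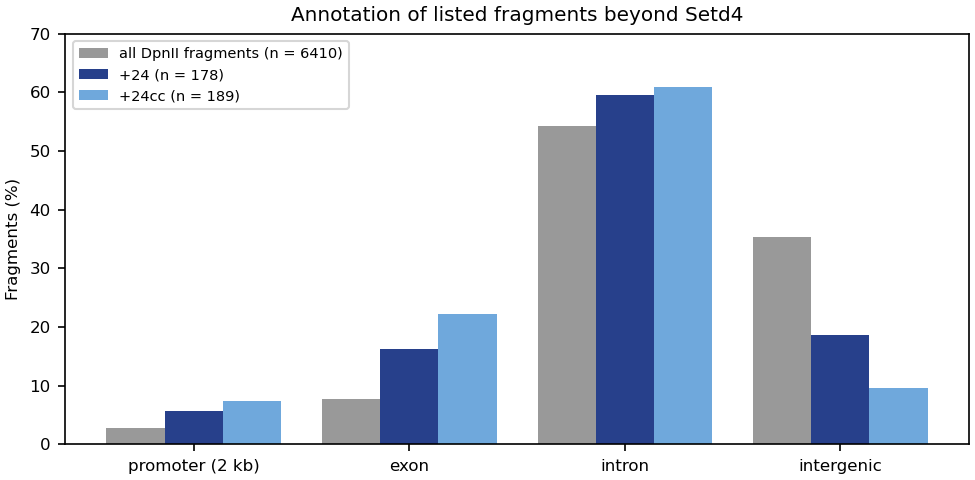
Percentage of fragments in promoters (2 kb upstream of a start site), exons, introns and intergenic sequence, for all *Dpn*II fragments from the domain edge to the outermost contact and for those listed by +24 and +24cc. Intergenic fragments are 35.3% of all, 18.5% of those of +24 and 9.52% of those of +24cc.

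By contact, 42 of 52 contacts of +24 and +24cc beyond *Setd4* (80.8%, 95% Wilson interval 68.1 to 89.2) overlapped a gene, against 20 of 47 (42.6%) beyond *Clic6* (odds ratio 5.56, 95% interval 2.13 to 15.6; adjusted p = 0.000751, Fisher's exact test). The sides also differed in the genes they hold: 64.7% of all *Dpn*II fragments lay at a gene on the *Setd4* side and 22.9% on the *Clic6* side out to the outermost contact there, or 43.7% in a stretch of equal length next to the domain. The part of gene density in the difference was not tested. A site contacted by both +24 and +24cc is counted for each bait separately in these totals, and the interval and p-value do not allow for this. With the GENCODE annotation in place of curated RefSeq genes, the shares were 82.7% and 66.0% and the adjusted p was 0.0999. Between the baits, 21 of 27 contacts of +24 (77.8%) and 21 of 25 of +24cc (84.0%) overlapped a gene (odds ratio 0.672, 95% interval 0.121 to 3.32; adjusted p = 0.875, Fisher's exact test). Counted by fragment rather than by contact, these shares were 81.5% and 90.5%, a description only, since the fragments of a run are not independent.

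**Figure D5:**
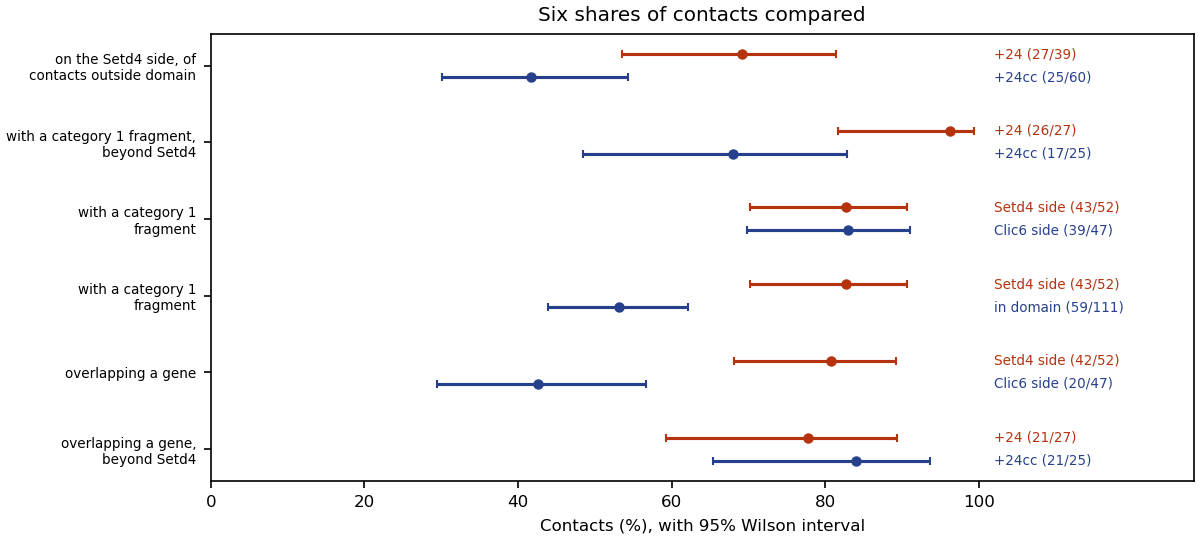
The 6 shares of contacts that were compared, with 95% Wilson intervals; each pair of points is 1 comparison, with the number of contacts at the right. In the share on the *Setd4* side, +24 (69.2%) lies above +24cc (41.7%), with 27 and 25 contacts there and 12 and 35 beyond *Clic6*, and the shares of category 1 contacts on the *Setd4* and *Clic6* sides (82.7% and 83.0%) lie together.

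Detection in 4C-seq depends on fragment length, base composition and enzyme sites, which were set beside those of the rest of the stretch. The median length of listed fragments was 330 bp against 276 bp for all fragments, and their GC content 48.4% against 46.0%. Within *Dop1b* the GC content was 49.9% for listed fragments and 50.0% for all. A site for *Mse*I, the second enzyme of the +24 baits, was present in 60.7% of +24 fragments, 64.6% of +24cc fragments and 60.2% of all. Interactions were called in windows of successive fragments, so a fragment without the site could be listed. Fragments under 100 bp made up 17.4% of those of +24 and 18.5% of those of +24cc, against 23.4% of all. The part of these differences in which fragments were listed was not tested.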

How the data were processed

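Starting from 12 4C-seq libraries and 6 controls without the first ligation, the authors mapped reads to mm10 with Bowtie1, assigned them to *Dpn*II fragments and removed reads at fragments with control reads. Category 1 and 2 interactions were called with fourSig for the whole of chromosome 16 and for the domain, and intersected between replicates. The deposited lists give fragment positions, and their score column, as deposited by the authors, was a constant of 1000 and was not used as a measurement.

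Fragments of each list that overlapped or abutted were merged into contacts, placed by midpoint. RefSeq genes of GRCm38.p6 with a curated transcript were used, and a gene was contacted when at least 1 bp of its body or the 2 kb upstream overlapped a listed fragment. Fragments were classed in the order promoter, exon, intron. Shares of contacts were compared by two-sided Fisher's exact test with Benjamini-Hochberg adjustment over 6 comparisons (threshold 0.05). Intervals of single shares were 95% Wilson intervals. Odds ratios were conditional maximum-likelihood estimates with exact 95% intervals. Merging and overlap were tested on simulated data. Alternatives were other merging, category 1 alone, other gene reach or annotation (GENCODE M21), and contacts near the edge left out. The contacts, gene lists, tests and alternatives were chosen with earlier results of these data known. The genes named are all those contacted, and those of the gene lists. Python 3.11.15, numpy 2.4.6, scipy 1.17.1 and matplotlib 3.10.9 were used. Read-level data were not analysed here.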

Additional observations from a re-analysis of the deposited data

How the results depend on the processing

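Of 71 alternative values, 59 kept their direction and side of the threshold or stayed within 1.5 times of a count. Without merging, the counts were 13 for P1cc, 6 for P1, 178 for +24 and 189 for +24cc, and leaving out contacts within 150 kb of the domain edge left 1 contact each for P1cc and P1. Unmerged, the share of category 1 was 15.6 percentage points higher on the *Setd4* than on the *Clic6* side, reversing a difference of -0.286 points, and the share at genes was -9.02 points for +24 against +24cc, past the threshold. With gaps of up to 5 kb merged, the differences in the *Setd4*-side share (24.1 points) and in category 1 against the domain (20.4 points) no longer passed, nor did category 1 of +24 against +24cc without the 150 kb next to the edge (29.7 points), or gene overlap against the *Clic6* side with GENCODE (16.7 points). Leaving out all contacts overlapping *Dop1b*, chosen after the data were seen, changed no call. The causes were not tested, except that unmerged values count each fragment of a run as a unit, so their p-values are too small and support no call. Genes contacted numbered 14 with category 1 alone, 15 with gene bodies, 18 with 5 kb upstream and 24 with GENCODE, against 16. No paired analysis was possible because the lists pool both replicates, and no replicate could be left out for the same reason. Unknown depth limits every statement on fragments not listed.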
